A study of Orestias ascotanensis with 42 samples.

Results

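Small RNA of muscle was set against small RNA of skin taken from the same animals of Orestias ascotanensis, a killifish of the springs of the Ascotán salt pan in the high Andes of northern Chile. The comparison rests on 28 of the 42 libraries of the series, 14 of muscle and 14 of skin. The 14 gill libraries were left out, because the question is about 2 tissues. Each fish gave 1 muscle and 1 skin library, so every difference below is muscle minus skin within a fish. The tissues of a fish were matched by individual number and collection; that a number marks the same fish in both tissues is read from the numbers and not spelled out in the labels. Wild fish with no stated treatment or genotype were netted in July (7 fish, treatment label winter) and in January (7 fish, treatment label summer). The titles call both collections summer, and the season names used here follow the treatment label. The labels give no age or sex for these fish, and nothing on whether scales, mucus or underlying tissue were part of a skin sample. Each library is a separate fish and tissue, so p-values measure the spread between fish.

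A microRNA (miRNA) is a short RNA that guides Argonaute proteins to messenger RNAs with a matching site, which are then translated less or degraded. Some miRNAs are made in nearly all cells, and others are so tied to a cell type that they serve as its markers. In vertebrates miR-133 and miR-206 belong to the striated muscle programme, miR-203, miR-205 and the miR-200 family to epithelia, miR-204 to pigmented cells, and miR-9 and miR-124 to nervous tissue.

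Counts per miRNA name were summed over 1 name per read profile, a read profile being a set of names that rest on the same reads. These sums ran from 5255472 to 17220107 reads in muscle (median 10426928) and from 3500940 to 12481299 reads in skin (median 5522643). Levels below are RPM, reads per 1000000 reads of that sum, and each gives the lowest, median and highest of the 14 libraries of a tissue. Names whose counts agree in only some libraries stay separate profiles. The sum and the shares of lists can therefore hold the same reads more than once. A level of 3 reads, the limit that a count of 0 allows, was under 1 RPM in each library. That limit covers counting error only, since the reads carry no molecular identifiers. In whole tissue, fewer cells of a type and less RNA per cell cannot be told apart.

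As sums, the skeletal muscle and epithelial lists went with the tissue labels, though miR-499 of the former had a higher share in skin. The skeletal muscle list held 10.7 to 28.5% of the reads outside the miR-10 family in muscle (median 17.1%) and 2.20 to 7.23% in skin (median 2.87%), with no overlap. As a share of all reads it overlapped, with 10960 to 38750 RPM in muscle and 8474 to 18930 RPM in skin. The epithelial list held 164, 297 and 550 RPM in muscle, against 11980, 34280 and 54790 RPM in skin. Muscle miRNAs were nevertheless plentiful in skin, where miR-133a had 5509, 7822 and 10950 RPM. Whether muscle fibres in the skin samples gave these reads was not tested.

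Muscle libraries were dominated by the miR-10 family. These miRNAs are encoded within Hox clusters, the gene clusters that set position along the body axis, and are known to target Hox genes in zebrafish. The family made up 84.1, 89.7 and 92.4% of reads in muscle, against 42.6, 61.9 and 74.2% in skin. Its main member miR-10b had 722200, 776100 and 816700 RPM in muscle, against 334500, 508100 and 630200 RPM in skin. Every muscle library stood above every skin library, and muscle was the higher tissue in each of 14 fish (exact permutation p = 0.000122, the smallest that these sign changes can give, and 0.000165 when adjusted over 27 library measures). The effective number of read profiles, the exponential of the Shannon entropy, was 2.64, 3.06 and 4.43 in muscle, against 7.14, 11.7 and 20.2 in skin. Of the 10 most abundant read profiles of each tissue, 5 were the same: miR-10b, miR-10c, miR-10d-5p, miR-181a-5p and let-7a. The muscle top 10 also held miR-10d, miR-133a, miR-2188-5p and the near-identical names miR-100 and miR-100-5p. In skin the other places went to miR-205, miR-184b, miR-21, miR-26 and miR-27c.

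Because of this dominance, differences were read on 2 scalings. Scaling by library totals compares shares of the counts summed over all names tested, in which a dominant miRNA pushes all others down. Reads held by several names, such as those of miR-10b, enter these totals more than once. Values with totals are therefore not on the scale of the RPM shares, which rest on 1 name per read profile and repeat fewer reads. TMM scaling, the trimmed mean of M-values, sets the bulk of miRNAs level and reads each change against that bulk. The median over 463 names tested was -0.23 with TMM and -2.45 with totals (log2, muscle minus skin), and the move to totals shifted the names by a median of -2.25. Values without a scaling named are with TMM, and small positive ones turn negative with totals. TMM factors were 0.26 to 1.16 in muscle (median 0.41) and 1.42 to 3.18 in skin (median 2.24).

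With TMM, 345 of 463 names passed (74.5%; edgeR quasi-likelihood test with the fish as a block, Benjamini-Hochberg adjusted p under 0.05). Muscle was higher for 153 names (33.0%) and lower for 192 (41.5%). Counted as read profiles, 74 of 262 were higher (28.2%) and 119 lower (45.4%). This balance depended on which names set the TMM factors. With factors taken from 1 name per read profile, which moved the profiles by a median of 0.31, 93 were higher and 82 lower. With the miR-10 family left out, a median move of 0.20, 81 of 250 profiles were higher and 87 lower, and 169 names were higher and 136 lower. With totals only 40 names were higher (8.64%) and 376 lower (81.2%). All 40 of those were also higher with TMM, all 192 TMM calls of lower were also lower with totals, and 68 names (14.7%) were called higher with TMM and lower with totals. By read profile 13 were higher with totals (4.96%) and 225 lower (85.9%), while 38 were higher with TMM and lower with totals (14.5%). On both scalings 13 were higher (4.96%) and 119 lower (45.4%). The 13 were miR-10b, miR-10d, miR-9, miR-9a-7-3p, miR-124-3p, miR-129, miR-129-3p, miR-132-2, miR-133a, miR-206, miR-219-5p, miR-730 and miR-2188-5p. Shares of reads did not overlap between the tissues for 3 profiles that were higher in muscle (1.15%: miR-9, miR-10b and miR-10d) and for 98 that were lower (37.4%). The TMM shares of 28.2% higher and 45.4% lower are the background for the counts within lists below. Counts with totals are to be read beside 4.96% higher and 85.9% lower. Those with factors from 1 name per read profile stand beside 93 higher and 82 lower of 262.

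**Figure D1:**
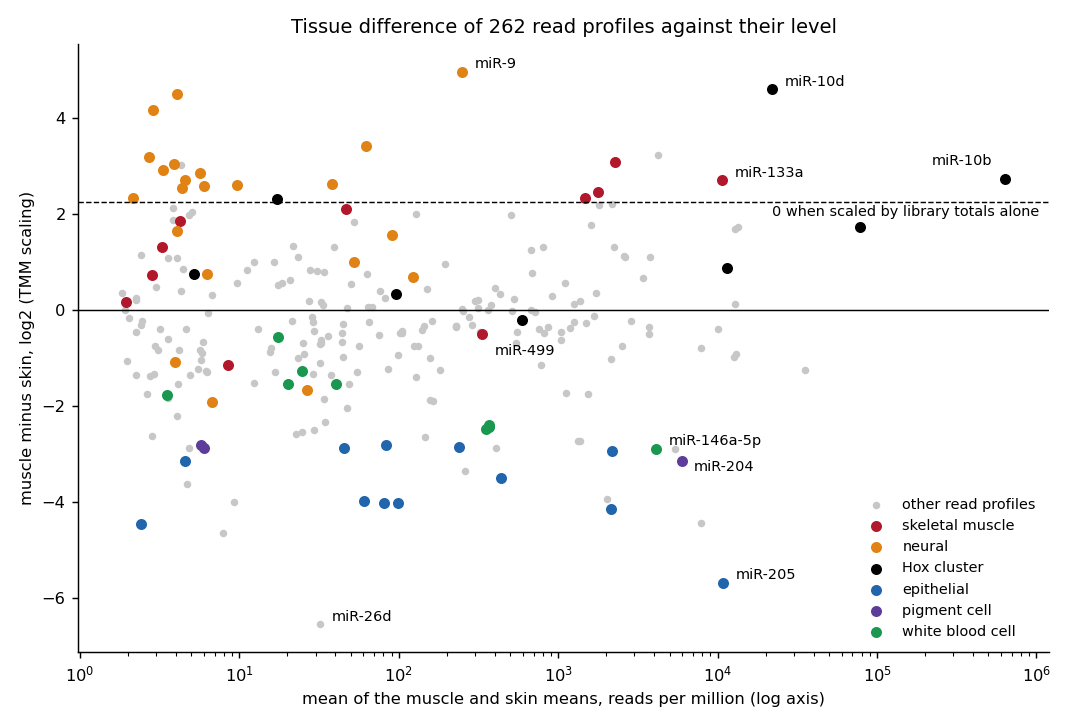
Muscle minus skin (log2, TMM scaling, vertical axis) of 262 read profiles against their level (mean of the 2 tissue means in RPM, log axis), coloured by list. The solid line is 0 with TMM and the dashed line marks where 0 lies when libraries are scaled by their totals alone; miR-10b, miR-10d, miR-9 and miR-133a lie above both lines, and all 12 epithelial profiles lie below both.

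Within the Hox cluster list 6 of 8 profiles tested were higher in muscle, 0 were lower and 2 did not pass, with a median of 1.30 (log2, TMM). With totals 2 were higher and 5 lower (median -0.95). miR-10b was higher by 2.73 ± 0.28 with TMM (SE; edgeR adjusted p = 2e-08) and by 0.48 with totals. miR-10d had 28000, 35970 and 53270 RPM in muscle, against 4238, 6649 and 8466 RPM in skin. No muscle library came near a skin library. The difference was 4.60 ± 0.24 with TMM (edgeR adjusted p = 5.9e-13) and 2.35 with totals. miR-10c had 3921, 6350 and 12220 RPM in muscle, against 9475, 14930 and 28620 RPM in skin, so its share was lower in muscle in 14 of 14 fish. Its difference was 0.88 ± 0.24 with TMM and -1.37 with totals. The other Hox family of the list, miR-196, split. miR-196a had 108, 194 and 392 RPM in muscle, against 416, 1000 and 1304 RPM in skin, a difference of -0.20 ± 0.13 with TMM (edgeR adjusted p = 0.16). miR-196b did not pass either (0.34 ± 0.20). The scarce miR-196b-5p was higher by 2.32 ± 0.33 with TMM (edgeR adjusted p = 2.2e-06) and by 0.04 with totals. The ratio of miR-10b to miR-196a within a library, which no scaling touches, was 10.89, 11.96 and 12.81 in muscle, against 8.02, 8.98 and 10.4 in skin (log2). It was higher in muscle by 2.93 ± 0.26 in 14 of 14 fish (SE; exact permutation p = 0.000122, or 0.000586 when adjusted over 24 ratios).

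A difference inside the name miR-10d depended on the reference entry. The count tables name miRNAs of 13 species, and under miR-10d and miR-10d-5p the 2 most abundant kinds of entry behaved apart. The zebrafish-type entry, which gives the name miR-10d its reads, had 28010, 35980 and 53280 RPM in muscle, against 4233, 6630 and 8456 RPM in skin. The salmon-type entry gives miR-10d-5p its reads, except in muscle of winter 7, where the zebrafish-type entry held slightly more. The salmon-type entry had 50580, 73430 and 98620 RPM in muscle, against 73720, 86870 and 100300 RPM in skin. The first was higher in muscle in 14 of 14 fish and the second in 2 of 14. Their log2 ratio, zebrafish over salmon, was -1.43, -0.84 and 0.07 in muscle, against -4.46, -3.76 and -3.37 in skin, with no overlap. Entries of other kinds under these names held at most 33990 reads over the 14 muscle libraries, against 5283296 of the zebrafish and 10100534 of the salmon entry. Entries were compared within a name if they had at least 10% of the reads of its most abundant entry and 1000 reads in all. Among 281 names with at least 2 such entries, 8 had entries whose muscle over skin ratios differed by over 1 on the log2 scale, and miR-10d-5p differed most (2.86). The others were miR-30a-5p, miR-30b-5p, miR-30c-5p, miR-210, miR-24b-5p, miR-212b and miR-212-5p. Differences of those names are therefore uncertain. The median difference among entries of a name was 0.00.

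Most of the skeletal muscle list was higher in muscle with TMM. Of 11 profiles tested 7 were higher, 2 lower and 2 did not pass (median 1.85 with TMM); with totals 2 were higher and 5 lower. miR-133a, which supports myoblast proliferation and muscle gene expression, had 6329, 12290 and 26880 RPM in muscle, against 5509, 7822 and 10950 RPM in skin. The groups overlapped, and the share was higher in muscle in 10 of 14 fish. Its difference was 2.70 ± 0.17 with TMM (edgeR adjusted p = 1.9e-11) and 0.44 with totals (edgeR adjusted p = 0.047). miR-206, a skeletal muscle miRNA that promotes differentiation of myoblasts, had 620, 2540 and 9464 RPM in muscle, against 635, 1159 and 2987 RPM in skin. The lowest value of each tissue came from the same fish, winter 3, and the highest from summer 5. The difference was 3.08 ± 0.24 with TMM (edgeR adjusted p = 3.2e-10) and 0.82 with totals (edgeR adjusted p = 0.0024), and the share was higher in muscle in 12 of 14 fish. miR-133-3p (2.45 ± 0.22) and miR-133 (2.34 ± 0.21) lay close to miR-133a, with which they may share reads, and neither passed with totals. The summed list had 10960, 19040 and 38750 RPM in muscle, against 8474, 12170 and 18930 RPM in skin, and was higher in muscle in 11 of 14 fish (exact permutation p = 0.00427, adjusted 0.00461). Another muscle miRNA, the 3p arm of miR-1, was not analysed here.

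The lower profiles were both arms of miR-499, which lies within a myosin heavy chain gene and marks slow muscle fibres in vertebrates. The main arm had 39.7, 98.1 and 265 RPM in muscle, against 317, 485 and 1079 RPM in skin. Every skin library exceeded every muscle library. Relative to the bulk the difference was small, -0.50 ± 0.18 with TMM (edgeR adjusted p = 0.017; without fish summer 7, -0.42 and 0.058; with factors from 1 name per read profile, -0.19 and 0.33), and with totals it was -2.76. Its other arm, miR-499-3p, fell by 1.15 ± 0.21 with TMM, with 0.190, 1.29 and 10.3 RPM in muscle and 7.44, 11.7 and 29.4 RPM in skin. The ratio of miR-499 to miR-133a-3p within a library was -8.18, -7.06 and -6.11 in muscle, against -4.58, -3.87 and -3.34 in skin (log2). It fell by 3.20 ± 0.12 in muscle, in 14 of 14 fish (SE; exact permutation p = 0.000122, adjusted 0.000586). The ratio of miR-206-3p to miR-133a-3p did not pass (0.37 ± 0.24, exact permutation p = 0.134, adjusted 0.161).

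**Figure D2:**
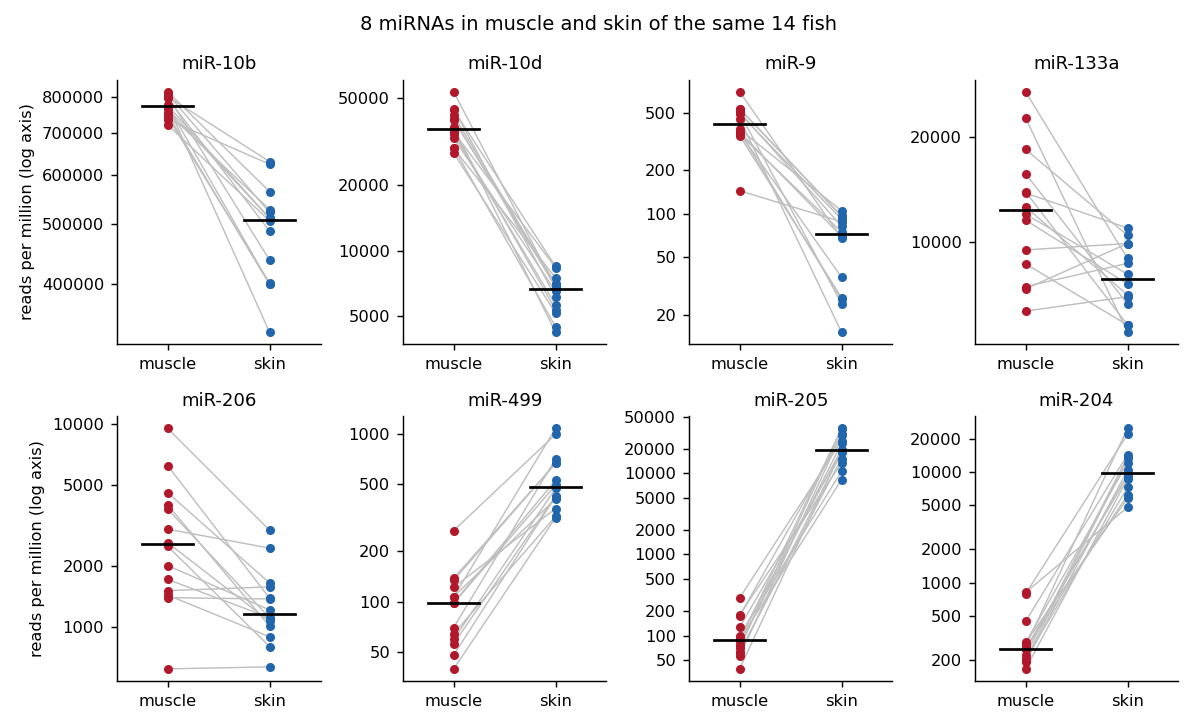
RPM (log axis) of 8 miRNAs in muscle (left, red) and skin (right, blue), with 1 point for each of 14 fish, a grey line joining the tissues of a fish and a black bar at the median. miR-10b, miR-10d and miR-9 are higher in muscle in every fish, miR-133a and miR-206 overlap between the tissues, and miR-499, miR-205 and miR-204 are lower in muscle with no overlap.

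The neural list was higher in muscle, at low levels. Of 22 profiles tested 19 were higher and 3 lower (median 2.59 with TMM), and with totals 7 were higher and 7 lower. Several were names of 1 miRNA, such as miR-212, miR-212-2, miR-212-5p and miR-212b-3p, so the 22 profiles are not 22 separate miRNAs. miR-9, which acts in neuron formation, had the largest positive difference of the profiles named by size. It had 145, 421 and 701 RPM in muscle, against 15.1, 72.4 and 105 RPM in skin, with the lowest muscle library (winter 3) still above the highest skin library. The difference was 4.97 ± 0.24 with TMM (edgeR adjusted p = 1.3e-13) and 2.70 with totals (edgeR adjusted p = 2.3e-08). It was 4.99 ± 0.34 in summer fish and 4.96 ± 0.34 in winter fish. miR-129 had 61.6, 84.6 and 128 RPM in muscle, against 16.7, 29.9 and 89.3 RPM in skin (3.42 ± 0.23 with TMM, 1.17 with totals). Its share was higher in muscle in 14 of 14 fish although the ranges overlapped. The neuronal miR-124-3p had 1.14, 2.33 and 17.0 RPM in muscle, against 0.271, 1.36 and 3.15 RPM in skin, and was higher by 3.19 ± 0.28 with TMM. miR-219-5p, needed for myelin-forming glia in the central nervous system, had 0.482, 5.15 and 21.7 RPM in muscle, against 0.270, 1.09 and 2.05 RPM in skin (4.51 ± 0.39 with TMM). Both stood near the limit of a few reads in the lowest libraries.

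Other nerve miRNAs differed less. miR-218b, of a family enriched in motor neurons, was higher by 2.63 ± 0.19 with TMM and its relative miR-218a by 1.56 ± 0.15, while with totals the values were 0.37 and -0.68. miR-138 (1.00 ± 0.21) and miR-128 (0.69 ± 0.17) were higher with TMM and lower with totals. The profiles that were lower were miR-132d (-1.66 ± 0.28), miR-132c (-1.91 ± 0.27) and miR-128-1-5p (-1.08 ± 0.47, a call lost when any 1 of 6 fish was left out). The summed neural list had 391, 762 and 1347 RPM in muscle, against 378, 596 and 765 RPM in skin (exact permutation p = 0.00342, adjusted 0.00385). The ratio of miR-9 to miR-124-3p was higher in muscle by 1.75 ± 0.32 in 13 of 14 fish (exact permutation p = 0.000366, adjusted 0.00110), with as few as 1 read of a member in a library.

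Epithelial miRNAs fell in muscle as a whole list. All 12 profiles tested were lower in muscle on both scalings, with a median of -3.74 with TMM. miR-205, which keeps basal cells of stratified epithelia dividing in mammals, had 38.8, 87.2 and 291 RPM in muscle, against 8336, 19370 and 35740 RPM in skin. The difference was -5.70 ± 0.22 with TMM (edgeR adjusted p = 6.2e-15) and -7.94 with totals. miR-203, which drives keratinocytes out of the cell cycle in mammals, had 72.4, 87.5 and 190.5 RPM in muscle, against 843, 3865 and 10230 RPM in skin (-2.95 ± 0.25). Members of the miR-200 family, which hold cells in the epithelial state by targeting ZEB transcription factors, followed: miR-141 (-4.16 ± 0.21), miR-429a (-4.03 ± 0.24), miR-200a-3p (-2.86 ± 0.22) and miR-200c (-2.82 ± 0.25) all fell with TMM. Of the epithelial pairs formed, miR-203a-3p and miR-205 differed most: the ratio of miR-203a-3p to miR-205 was -2.01, 0.21 and 1.29 in muscle, against -4.45, -2.78 and -0.83 in skin (log2). It was higher in muscle by 2.73 ± 0.29 in 14 of 14 fish (exact permutation p = 0.000122, adjusted 0.000586).

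Ratios inside the miR-200 family differed too. In vertebrates one transcript carries miR-200b, miR-200a and miR-429, and another carries miR-200c and miR-141. In these counts, however, miR-200a and miR-141 rest on the same reads, so their ratios share a numerator and do not stand for separate transcripts. The names miR-200b-3p and miR-200a-3p also rest on the same reads, so the denominator named miR-200b-3p is the miR-200a-3p given above. Which miRNA gave these reads cannot be told from the names. A ratio of miR-200a to miR-200b-3p therefore compares read profiles, and cannot be read as miR-200a against miR-200b. The ratio of miR-200a to miR-200b-3p fell by 1.30 ± 0.24 in muscle, in 13 of 14 fish (log2; exact permutation p = 0.000854, adjusted 0.00228). miR-141 against miR-200c fell by 1.34 ± 0.30 in 13 of 14 fish (exact permutation p = 0.00159, adjusted 0.00346). miR-429b against miR-200b-3p fell by 1.13 ± 0.28 in 12 of 14 fish (exact permutation p = 0.00146, adjusted 0.00346). The lowest counts behind these ratios, 45, 19 and 6 reads, were small.

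Other miRNAs with the largest falls in muscle had no list of their own or came from small ones. miR-204, which acts in pigment cells and the retinal pigment layer, had 168, 254 and 822 RPM in muscle, against 4796, 9862 and 24680 RPM in skin (-3.15 ± 0.28 with TMM, edgeR adjusted p = 2.3e-09). All 3 profiles of the pigment cell list were lower (median -2.89), and all were names of miR-204 (miR-204, miR-204-3p and miR-204b). miR-184b, whose family is abundant in the corneal and lens epithelium of vertebrates, had 63.1, 196 and 329 RPM in muscle, against 4988, 16410 and 24800 RPM in skin (-4.45 ± 0.25). miR-725-3p had 15.5, 51.5 and 134 RPM in muscle, against 981, 4068 and 8624 RPM in skin (-3.94 ± 0.30). miR-31, a hair follicle and keratinocyte miRNA in mammals, fell by 3.35 ± 0.25, and miR-375, known from endocrine and secretory epithelial cells, fell by 2.65 ± 0.23.

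The largest fall of all named profiles was that of miR-26d. It had 18 reads in all 14 muscle libraries together, with 7 of them at 0, and 4949 reads in the 14 skin libraries. Its level was 0.00, 0.0290 and 0.763 RPM in muscle, against 0.571, 38.4 and 218 RPM in skin, so that the lowest skin library overlapped with muscle. The fitted value of -6.56 ± 0.48 (edgeR adjusted p = 1.5e-10) depends on how counts of 0 are treated. Its abundant relative miR-26 had 1430, 2802 and 8266 RPM in muscle, against 8203, 16660 and 25840 RPM in skin, a difference of -0.39 ± 0.14 with TMM (edgeR adjusted p = 0.015; 0.65 with factors from 1 name per read profile). Of the 5 profiles tested in the miR-26 and miR-31 list 3 were lower and 0 higher, beside 45.4% lower among all profiles. Among those that did not pass was miR-26d-5p, a name close to miR-26d with a read profile of its own. It had 3.79 to 38.2 RPM in muscle and 20.8 to 96.7 RPM in skin, so the large fall holds for the name miR-26d only.

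With TMM, blood and immune miRNAs parted into those of white and those of red cells. Of 9 white blood cell profiles tested 8 were lower in muscle and 0 higher (median -1.77). Many of the 9 were names of miR-142: miR-142, miR-142a, miR-142-5p, miR-142-3p and miR-142-2-3p. Levels of miR-142, miR-142a and miR-142-5p nearly coincided, with 113.9, 113.7 and 106.6 RPM in muscle of winter 2. The 9 profiles are therefore not 9 separate miRNAs. miR-146a-5p, a brake on inflammatory signalling, had 75.7, 220.4 and 1362 RPM in muscle, against 3222, 7548 and 13570 RPM in skin (-2.90 ± 0.20 with TMM, edgeR adjusted p = 3.8e-11). The blood-cell marker miR-142 had 6.26, 21.5 and 521 RPM in muscle, against 296, 559 and 1214 RPM in skin (-2.40 ± 0.28). Its highest muscle value came from fish winter 7, the next highest being 114 RPM, and only that library reached the skin range. Without fish winter 7 there were again 8 lower and 0 higher. miR-155 of activated lymphocytes and macrophages fell by 1.28 ± 0.20, while miR-150, of mature lymphocytes, did not pass (-0.56 ± 0.30, edgeR adjusted p = 0.099; without fish winter 3, -0.75 and 0.014). miR-181a-5p, which tunes T cell receptor signalling in mice, had 2280, 5571 and 17350 RPM in muscle, against 20370, 62620 and 122100 RPM in skin (-1.25 ± 0.27 with TMM), and all 3 profiles of its family were lower.

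Red cell miRNAs did not follow the white cell ones with TMM. miR-451, which is needed for red cell maturation, had 48.4, 95.7 and 303 RPM in muscle, against 143, 199 and 646 RPM in skin. It was higher in muscle by 0.96 ± 0.16 with TMM (edgeR adjusted p = 1.4e-05) and lower with totals (-1.28). miR-144, which is made from the same transcript in vertebrates, did not pass with TMM (0.24 ± 0.20), but did with factors from 1 name per read profile (0.55, edgeR adjusted p = 0.029). The ratio of miR-144 to miR-451 fell by 0.73 ± 0.23 in muscle, in 13 of 14 fish (exact permutation p = 0.000244, adjusted 0.000977). Of 4 red cell profiles 1 was higher, 0 were lower and 3 did not pass. With totals all 4 were lower, as were all 9 white cell profiles, beside 85.9% of all profiles. The summed red cell list had medians of 162.7 RPM in muscle and 472.3 RPM in skin (exact permutation p = 0.00269, adjusted 0.00315). As a share of the reads outside the miR-10 family it was higher in muscle, by a mean of 645.6 RPM (exact permutation test, adjusted p = 0.0345).

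**Figure D3:**
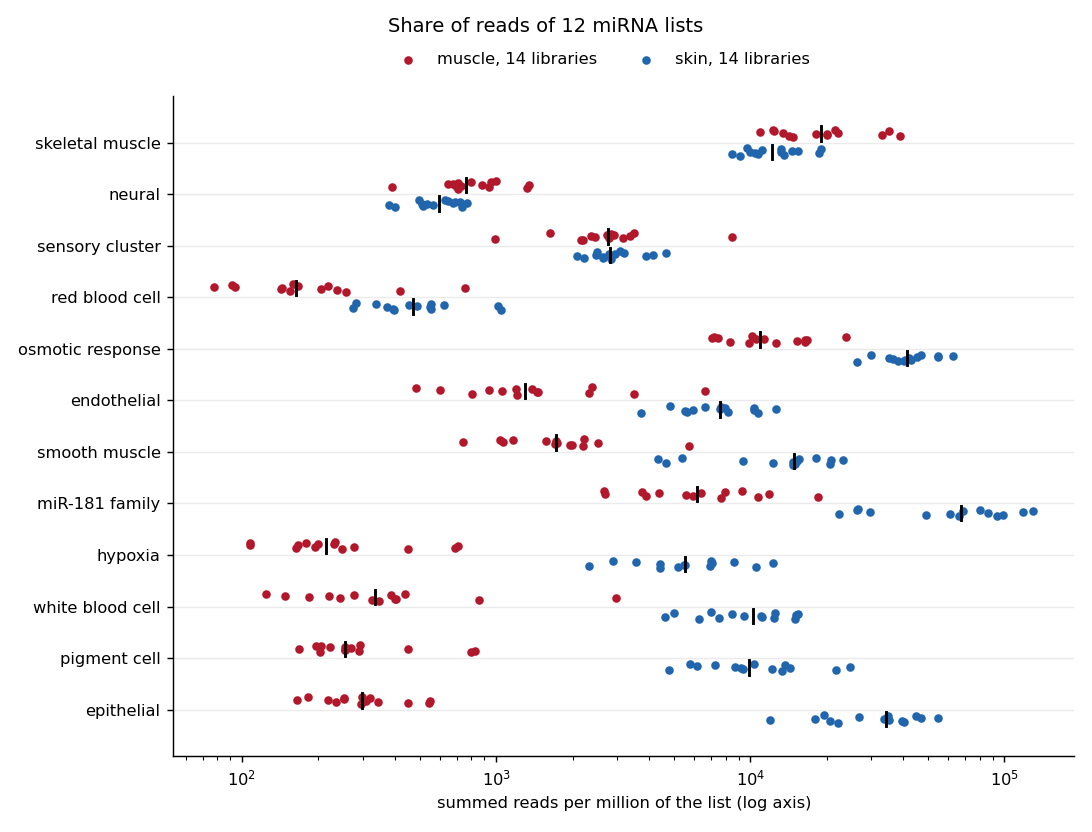
Summed RPM (log axis) of 12 lists in each of 14 muscle libraries (upper points of a row, red) and 14 skin libraries (lower points, blue), with a black bar at the median. The epithelial, pigment cell, white blood cell, hypoxia, osmotic response and miR-181 lists do not overlap between the tissues, while the sensory cluster list covers 988 to 8467 RPM in muscle and 2086 to 4651 RPM in skin.

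Among miRNAs of vessels and of smooth muscle, members of 1 transcript or 1 hairpin parted between the tissues. miR-143 and miR-145, smooth muscle miRNAs made from a shared transcript, moved apart. miR-143 had 714, 1694 and 5681 RPM in muscle, against 4223, 14800 and 23020 RPM in skin (-0.80 ± 0.18 with TMM), while miR-145 was higher by 0.74 ± 0.23 with TMM and lower with totals (-1.53). The ratio of miR-143-3p to miR-145-5p fell by 1.53 ± 0.29 in muscle, in 13 of 14 fish (exact permutation p = 0.000366, adjusted 0.00110). miR-126, the endothelial miRNA, gives both arms of its hairpin in quantity. miR-126-3p was higher in muscle by 0.76 ± 0.16 with TMM and lower with totals (-1.50, edgeR adjusted p = 5.3e-05). miR-126-5p fell by 0.50 ± 0.16 with TMM, a call lost with factors from 1 name per read profile (-0.19, edgeR adjusted p = 0.38). The ratio of miR-126-3p to miR-126-5p was -2.91, -1.29 and -0.09 in muscle, against -4.02, -2.66 and -0.93 in skin. It was higher in muscle by 1.26 ± 0.21 in 12 of 14 fish (exact permutation p = 0.000488, or 0.00317 when adjusted over 13 arm ratios). Of the 7 endothelial profiles 1 was higher and 6 lower, or 3 lower with factors from 1 name per read profile, with miR-221, which restrains KIT signalling in human endothelial cells, at -1.26 ± 0.15.

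The hypoxia list split by hairpin arm as well. miR-462 and miR-731 are a teleost pair induced by low oxygen in zebrafish. miR-462 had 38.3, 74.2 and 278 RPM in muscle, against 984, 2365 and 5328 RPM in skin (-2.73 ± 0.23), and miR-731 fell by 2.89 ± 0.24. Their ratio did not differ beyond its spread (0.16 ± 0.13, exact permutation p = 0.231, adjusted 0.252). miR-210-3p, the general hypoxia miRNA of vertebrates, fell by 0.48 ± 0.18 with TMM, a call lost with factors from 1 name per read profile (-0.17, edgeR adjusted p = 0.42). Its other arm miR-210-5p was higher by 1.10 ± 0.31 with TMM and lower with totals (-1.13). The ratio of miR-210-5p to miR-210-3p was -0.25, 0.02 and 1.31 in muscle, against -2.73, -1.54 and -0.31 in skin, with no overlap. The difference was 1.59 ± 0.24, higher in muscle in 14 of 14 fish (exact permutation p = 0.000122, adjusted 0.00159). The bare name miR-210 is among those whose reference entries disagree, but this ratio used the names miR-210-5p and miR-210-3p. Entries of miR-210-5p lay from -1.14 to -1.11 (log2 muscle over skin). Over the list 1 of 7 profiles was higher and 5 were lower. The list held near-copies, such as miR-462 and miR-462a-5p, so the 7 profiles are not 7 separate miRNAs.

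Of 13 arm ratios tested 4 passed. Beside miR-210 and miR-126 these were miR-133a-5p over miR-133a-3p (-0.59 ± 0.14, lower in muscle in 12 of 14 fish, exact permutation p = 0.00146, adjusted 0.00635) and miR-455-3p over miR-455-5p (0.64 ± 0.22, exact permutation p = 0.0137, adjusted 0.0444). The last was lost when any 1 of 9 fish was left out. The 9 that did not pass had differences from -0.39 to 0.47; the lowest, miR-214-5p over miR-214-3p, passed without fish winter 5 or winter 7 (-0.47 and -0.45).

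The osmotic response list, with miRNAs that answer to salt stress in tilapia and other fishes, went both ways with TMM: 4 of 12 profiles were higher, 3 lower and 5 did not pass. Among all profiles 28.2% were higher and 45.4% lower. As a share of reads the list had 7046, 10910 and 23730 RPM in muscle, against 26240, 41380 and 62600 RPM in skin. miR-21 accounted for much of this in skin, with 1595, 2699 and 5257 RPM in muscle, against 11150, 23560 and 35230 RPM in skin (-0.91 ± 0.14 with TMM). The miR-30 family had higher members, miR-30b (2.18 ± 0.33), miR-30c-5p (1.31 ± 0.26), miR-30b-5p (1.12 ± 0.23) and miR-30a-5p (1.10 ± 0.22), and with totals none of these was higher (-0.09, -0.94, -1.14 and -1.15). These names partly rest on the same reads, and the last 3 had disagreeing entries. Without fish winter 2 and winter 7, whose muscle libraries had the highest TMM factors (0.86 and 1.16), 6 profiles were higher and 3 lower, and with factors from 1 name per read profile 8 were higher and 3 lower.

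miRNAs known from dividing cells were lower in muscle or did not pass. In the clusters around miR-17 and miR-92, known from proliferating cells, 12 of 17 profiles were lower, 0 higher and 5 did not pass (median -0.69). With factors from 1 name per read profile 4 of the 17 were lower (median -0.38). Among all 262 profiles 82 were lower with those factors, so the list did not stand out as lower there. miR-92 had 47.3, 179 and 705 RPM in muscle, against 970, 2633 and 5473 RPM in skin (-1.76 ± 0.24), while miR-17 did not pass (-0.23 ± 0.22). The ratio of miR-17 to miR-92a-3p was higher in muscle by 1.46 ± 0.44 in 12 of 14 fish (exact permutation p = 0.00928, adjusted 0.0152). Lower profiles also made up 13 of 17 in the miR-23, miR-24 and miR-27 list and 9 of 10 in the miR-101 and miR-148 list, with 1 and 0 higher, and with factors from 1 name per read profile these were 6 and 8 lower. In the miR-15 and miR-16 list 4 of 8 were lower and 1 higher, near the 45.4% lower among all profiles, and with those other factors 0 were lower. The miR-27c share was 724, 2853 and 12680 RPM in muscle, against 10860, 20120 and 33000 RPM in skin (-0.98 ± 0.19 with TMM).

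The let-7 family, linked to differentiation, mostly stayed with the bulk: 3 of 13 profiles were higher, 2 lower and 8 did not pass (median 0.12). With factors from 1 name per read profile 6 were higher and 0 lower. let-7a had 2640, 3941 and 12290 RPM in muscle, against 5493, 19390 and 32620 RPM in skin (0.12 ± 0.22 with TMM, edgeR adjusted p = 0.60). In the list of its cluster partners miR-99, miR-100 and miR-125, 6 of 10 profiles were higher and 0 lower with TMM. Without 1 fish 4 to 7 were higher. With totals 0 were higher and 9 lower, beside 85.9% lower among all profiles. The summed share of that list did not pass (exact permutation p = 0.155, adjusted 0.161). The medians of that share went opposite ways in the 2 collections. They were 13470 RPM in muscle and 24760 RPM in skin of winter fish, against 42330 and 32780 RPM in summer fish. The difference of that list from let-7 was not tested. miR-100 had 3786, 10390 and 25510 RPM in muscle, against 6585, 12300 and 29710 RPM in skin. The difference was 1.73 ± 0.34 with TMM and -0.52 with totals. The ratio of miR-125b-5p to miR-100 fell by 1.36 ± 0.36 in muscle, in 11 of 14 fish (exact permutation p = 0.00256, adjusted 0.00513). That test took both collections together, although the muscle levels of miR-100 differed between them, as given below.

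miRNAs of the cluster of miR-183, miR-182 and miR-96, known from hair cells of the inner ear and lateral line, were higher with TMM in 3 of 3 profiles. miR-183 had 538, 2090 and 7507 RPM in muscle, against 1104, 1564 and 4050 RPM in skin (2.21 ± 0.23 with TMM, -0.07 with totals). miR-182 was higher by 1.32 ± 0.21 and miR-96 by 0.84 ± 0.23 with TMM, and both were lower with totals (-0.94 and -1.42). As a share, the summed list did not pass (exact permutation p = 0.979), with 8467 RPM in muscle of winter 7. Without that fish the list was lower in muscle, by a mean of -503.1 RPM (exact permutation test, adjusted p = 0.0221). As a share of the reads outside the miR-10 family, the list of all 14 fish was higher in muscle, by a mean of 17930 RPM (exact permutation test, adjusted p = 0.000277). The ratio of miR-183 to miR-182 was higher in muscle by 0.89 ± 0.32 in 11 of 14 fish (exact permutation p = 0.0154, adjusted 0.0231).

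The shorter lists gave mixed counts, to be read beside 28.2% higher and 45.4% lower among all profiles. Cartilage and fibroblast miRNAs had 1 higher, 3 lower and 4 not passing of 8, with miR-214 at -0.03 ± 0.18 and miR-199 at -0.27 ± 0.17, and miR-140-5p, a cartilage miRNA, higher by 0.79 ± 0.23 with TMM and lower with totals (-1.48). Lipid miRNAs had 1 higher, 1 lower and 5 not passing of 7. In the endocrine list 2 were higher (miR-7 by 2.05 ± 0.35, at 0.191, 2.36 and 16.8 RPM in muscle and 0.577, 2.31 and 32.5 RPM in skin) and 1 was lower. In the p53-linked list 1 of 2 was higher and 1 did not pass, and in the smooth muscle list described above 1 of 2 was higher and 1 lower. With factors from 1 name per read profile 1 cartilage and fibroblast profile was lower and 3 lipid profiles were higher. Neither of the gonad profiles measured passed the count filter, so neither was tested singly. As a summed share the gonad list was lower in muscle (exact permutation p = 0.000366, adjusted 0.000471). It had 0.0, 0.269 and 1.07 RPM in muscle, against 0.0, 21.25 and 237.9 RPM in skin, so the ranges overlapped.

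Ratios within a library are free of scaling, and 17 of the 24 that could be formed passed, some of which share a member. Beside those given above, miR-10b over miR-10d-5p was higher in muscle by 1.01 ± 0.09 in 14 of 14 fish with no overlap (exact permutation p = 0.000122, adjusted 0.000586). That ratio rests on the salmon-type entry, which gives miR-10d-5p its reads except in muscle of winter 7. It is uncertain for the name, since the entries of miR-10d-5p disagreed (-0.31 to 2.55, log2 muscle over skin). miR-206-3p over miR-133b-3p was higher by 0.73 ± 0.28 (exact permutation p = 0.0243, adjusted 0.0343), a call lost when any 1 of 8 fish was left out. miR-133b-3p over miR-133a-3p fell by 0.36 ± 0.11 (exact permutation p = 0.00952, adjusted 0.0152). The largest ratio difference, miR-132d over miR-212b at -4.25 ± 0.38 (exact permutation p = 0.000122, adjusted 0.000586), rested on as few as 4 reads. It is uncertain, since the entries of miR-212b disagreed (-0.26 to 0.78, log2 muscle over skin). Another miR-132 profile, miR-132-2, was higher in muscle on both scalings. miR-30d over miR-30a-5p (-0.75 ± 0.22, exact permutation p = 0.00586, adjusted 0.0108) is uncertain, since in many skin libraries both names took the same entry. Ratios that did not pass were those of miR-462 to miR-731-5p, miR-221 to miR-222a-5p, miR-192 to miR-194a-5p, miR-199 to miR-214, miR-27b to miR-23b-3p (which passed without fish winter 7, at -0.48), miR-96-5p to miR-182 and miR-206-3p to miR-133a-3p.

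**Figure D4:**
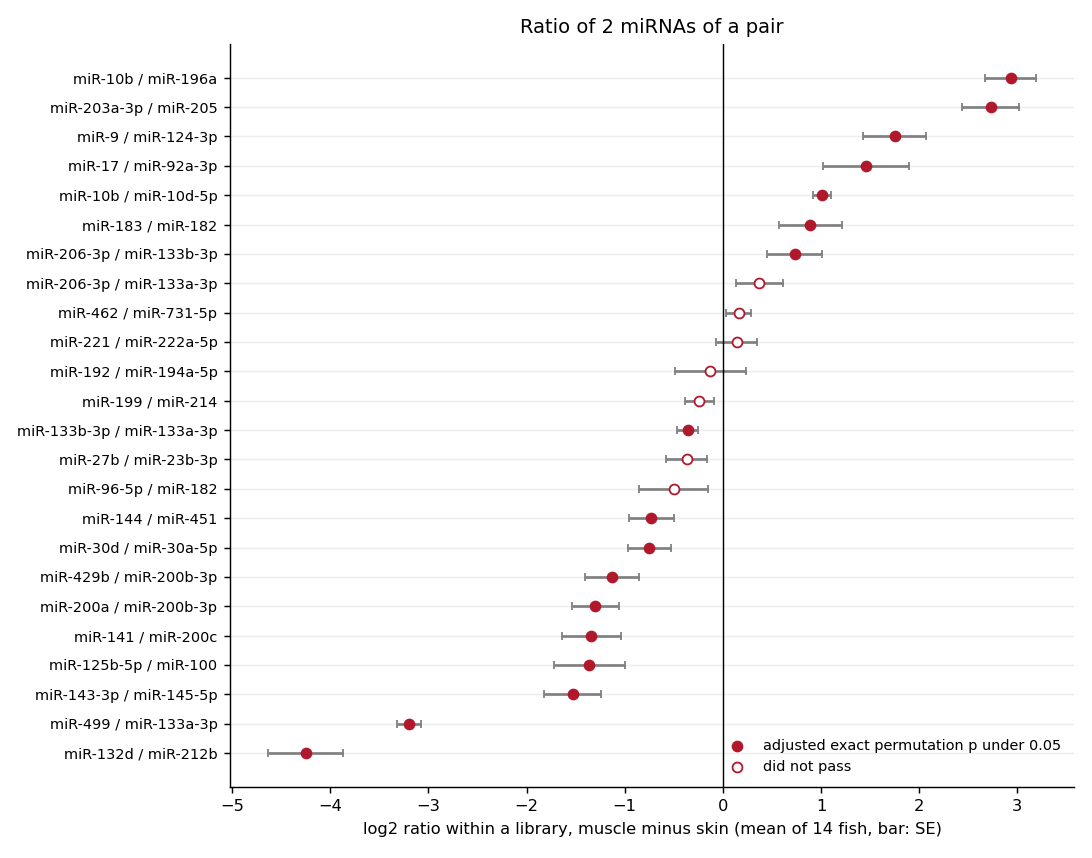
Difference of the log2 ratio of 2 miRNAs within a library, muscle minus skin (horizontal axis; mean of 14 fish, bar SE), for 24 pairs. Filled points passed and open points did not; miR-10b over miR-196a lies farthest to the right at 2.93, and miR-499 over miR-133a-3p lies at -3.20 with an SE of 0.12.

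Some miRNAs held the same place relative to the bulk in both tissues. The profiles with the smallest SE among those whose 95% interval lay within 0.5 of 0 were miR-130 (-0.01 ± 0.14), miR-130a-3p (-0.05 ± 0.14), miR-103 (0.10 ± 0.14), miR-196a (-0.20 ± 0.13) and miR-26b (-0.23 ± 0.13). miR-103, of a family that acts in insulin signalling in mice, had 89.4, 157 and 266 RPM in muscle, against 447, 583 and 823 RPM in skin. With factors from 1 name per read profile miR-103 passed as higher (0.41, edgeR adjusted p = 0.0087). The level with TMM is a statement about these miRNAs against the bulk, since each of their shares was lower in muscle in 14 of 14 fish.

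The other variable of the design is the collection, so the tissue difference was set between summer and winter fish. The test of the difference itself passed for 7 of 463 names (1.51%) and 5 of 262 read profiles (1.91%), against 58 names at an unadjusted p under 0.05 (edgeR). With totals only 0 passed (edgeR, 177 names at an unadjusted p under 0.05), and DESeq2 called 15. All 5 profiles had a larger muscle minus skin value in summer fish. miR-100 was higher in muscle by 2.70 ± 0.35 in summer fish and by 0.75 ± 0.34 in winter fish, a difference of 1.96 ± 0.47 (edgeR adjusted p = 0.033). Its muscle levels were 10690, 19770 and 25510 RPM in summer and 3786, 5841 and 10100 RPM in winter, without overlap. In skin they were 7779, 14630 and 29710 RPM in summer and 6585, 10170 and 19070 RPM in winter. miR-99, of the same family, had 1181, 2212 and 3071 RPM in summer muscle and 547, 780 and 1309 RPM in winter muscle (difference 1.69 ± 0.40, edgeR adjusted p = 0.033). The calls of miR-100 and miR-99 were kept in 5 of 14 fits without 1 fish, and those of the other 3 profiles in 14 of 14. The name miR-100-5p, near-identical to miR-100, did not pass this test.

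miR-196b-5p, a Hox cluster miRNA, had 15.8, 29.8 and 48.0 RPM in summer muscle and 6.85, 8.78 and 15.4 RPM in winter muscle, while skin had medians of 15.5 RPM in summer and 14.2 RPM in winter (difference 2.27 ± 0.36, edgeR adjusted p = 0.00077). The more abundant name miR-196b did not pass this test. It had 24.7 to 52.3 RPM in summer muscle and 26.9 to 88.4 RPM in winter muscle. miR-15e-5p had 2.66, 4.50 and 7.87 RPM in summer muscle and 0.0954, 1.02 and 1.32 RPM in winter muscle, with skin medians of 3.98 RPM in summer and 4.04 RPM in winter (difference 3.20 ± 0.44, edgeR adjusted p = 0.00024). For miR-100b-5p it was skin that differed: 4.82, 11.3 and 57.9 RPM in summer skin and 44.1, 99.1 and 172 RPM in winter skin, with muscle medians of 20.3 RPM in summer and 23.8 RPM in winter (difference 3.36 ± 0.60, edgeR adjusted p = 0.0026). miR-100b-5p and miR-15e-5p differ little in name from abundant relatives and may share reads with them. The season and the date of collection split the fish alike and cannot be told apart.

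**Figure D5:**
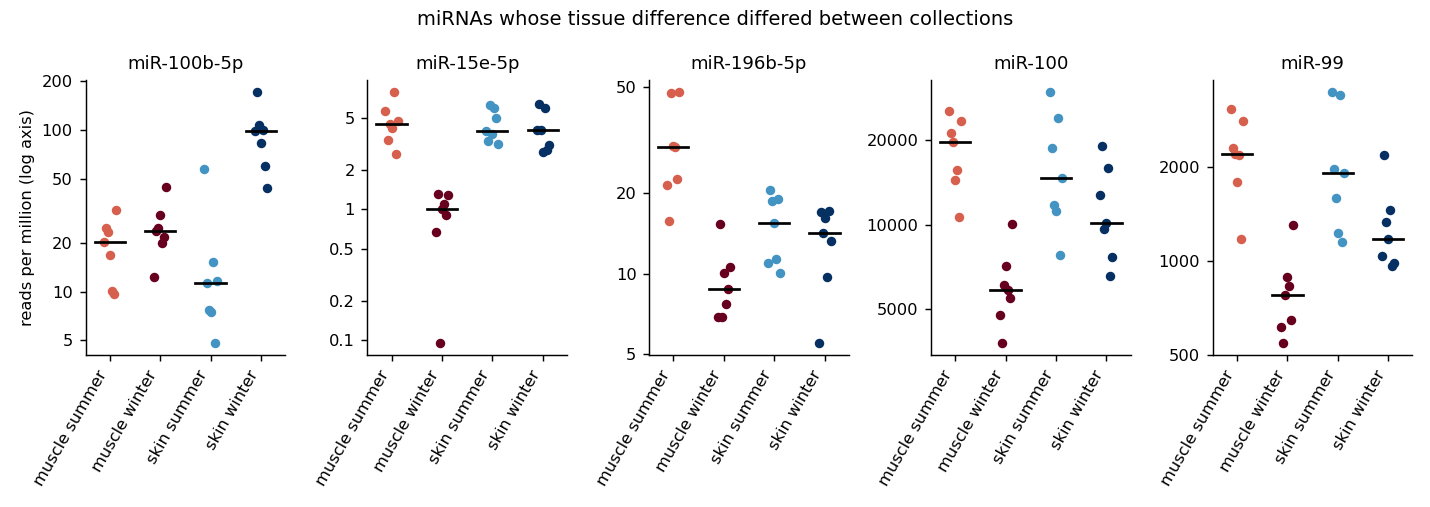
RPM (log axis) of the 5 miRNAs whose tissue difference differed between collections, in 7 libraries each of muscle summer, muscle winter, skin summer and skin winter, with a black bar at the median. In muscle miR-15e-5p, miR-196b-5p, miR-100 and miR-99 are higher in summer, and miR-100b-5p is lower in summer skin.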

How the data were processed

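Short RNA cut from denaturing gels went into TruSeq Small RNA libraries (Illumina), and the first read of NextSeq runs was used, per the labels' protocols. Each deposited table holds raw read counts for every pair of mature miRNA and precursor, per the file headers. It also holds CPM values made by the authors, per the file headers, which entered no test. The sources used here do not name the aligner or the miRNA release. The 3527 entries common to all tables carry 13 species prefixes; after stripping them, the entry with the highest count was taken for each of 1342 names in each library. Names agreeing within 5% or 3 reads in all 28 libraries formed 1 read profile (339 among 573 names with at least 28 reads). Depth was 18314928 to 57710548 counts over names in muscle and 11091382 to 36093916 in skin. Of 84 pairs of libraries within a group 0 were identical, with a chi-square over degrees of freedom of at least 46.2.

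The fits used edgeR 4.0.16 under R 4.3.3 (quasi-likelihood F test, TMM, filterByExpr with a minimum count of 10 and a minimum total of 15, fish as block). Adjusted p-values are Benjamini-Hochberg over 463 names. SE is the log2 value divided by the square root of F. Library measures, ratios (pseudocount 0.5) and arm ratios (at least 10 reads of each arm in every library) had two-sided exact permutation tests over 16384 sign changes in 14 fish, adjusted within each family, with Python 3.11.15. The pairing comes from the labels, which give both tissues the same individual number and collection. The deviations of the 2 tissues of a fish from their group means correlated with a median of 0.13 (from -0.26 to 0.52), above 0.1 in 7 of 14 fish, and 5 fish matched their own skin best. On simulated data with the 463 names of this comparison the fit recovered 91% of changes of 1 and 99% of changes of 2 on the log2 scale, with 2.56% of calls false. The simulated tissues had the same means apart from changes balanced up and down. These figures therefore do not cover error from the choice of scaling.

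Alternatives were DESeq2 1.42.0, other scalings, filters, entries and names, no block, all 42 libraries, single collections and leaving out fish. Named miRNAs are the 10 largest differences in each direction (adjusted p under 0.05, same sign in 14 fish, mean of at least 10 RPM in a tissue), the 10 most abundant profiles of each tissue, members of the lists, passing ratios, season differences and 5 profiles at like level; miR-458, miR-730, miR-2184 and the names called higher on both scalings were named after their values were seen. The comparison, lists and pairs were chosen with earlier results of these data known.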

Additional observations from a re-analysis of the deposited data

Results flagged for a closer look

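In 108 combinations of a group of 7 libraries and a measure, 11 had a library far from the other 6, where chance flags about 1 in 20. Muscle of fish winter 7 had 2957 RPM of white blood cell miRNAs and 8467 RPM of the sensory cluster, both the highest of winter muscle. In the same library the epithelial list was also the highest of muscle, at 550 RPM, and its TMM factor was 1.16. Muscle of winter 2 had 5759 RPM of smooth muscle miRNAs, and muscle of winter 6 had 0.731 RPM of the gonad list. Muscle of summer 5 had 23730 RPM of the osmotic response list. In that sum miR-30a-5p, miR-30b and miR-30b-5p each had 4503 RPM, so it probably holds the same reads more than once.

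In skin, winter 2 had 1043 RPM of red blood cell miRNAs and winter 5 had 3878 RPM of the sensory cluster. Skin of winter 1 had 26240 RPM of the osmotic response list, the lowest of skin, and 3780 RPM of the p53-linked list. Skin of winter 3 had 97.3 RPM of the gonad list, and skin of summer 2 had 24730 RPM of pigment cell miRNAs.

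The muscle minus skin value differed between summer and winter fish, by the test of the difference, for miR-100b-5p (3.36), miR-15e-5p (3.20), miR-196b-5p (2.27), miR-100 (1.96) and miR-99 (1.69, all log2, summer minus winter). Leaving out 1 fish at a time gave 3.08 to 3.70, 2.99 to 3.45, 2.08 to 2.38, 1.68 to 2.20 and 1.44 to 1.93 in the same order. With totals only the values were 2.54, 2.28, 1.40, 1.09 and 0.82, and none passed (adjusted p from 0.06 to 0.12).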

How the results depend on the processing

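The number of names passing was 345 with the fish as a block and 348 with no replicate block (352 over 42 libraries without it). Among the named miRNAs, leaving out the block gained 2 calls (miR-192 and miR-33-5p) and changed no other. The number was 416 with totals only, 358 with DESeq2, 328 to 349 without 1 fish, 318 without fish winter 2 and winter 7 (an alternative chosen after seeing the data), 71 of 95 with zebrafish entries only and 175 of 262 with 1 name per read profile, where fewer names were tested. Names higher in muscle were 40 with totals only, 31 with zebrafish entries, 93 with 1 name per profile and 144 to 158 without 1 fish. Names lower were 376, 40, 82 and 172 to 194, and 124 in winter fish only. With 1 name per profile, or without the miR-10 family (169 names higher, 136 lower), more names were higher than lower; of the profiles 93 were higher and 82 lower, and 81 and 87. Counts within lists under these factors were chosen after seeing the data. Without 1 fish, 25 to 26 measures, 16 to 18 ratios and 3 to 5 arm ratios passed; zebrafish entries gave no arm pair. The season test gave 0 names with totals only, 15 with DESeq2 and 3 to 22 without 1 fish: 22 without winter 3, 15 without summer 7, 12 without summer 5 and 3 or 4 without 9 others; the cause was not tested.

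The sign turned with totals only, whose construction lowers all names, for let-7a (-2.14), miR-7 (-0.17), miR-10c (-1.37), miR-10d-5p (-0.53), miR-15e-5p (-1.21), miR-18 (-2.08), miR-30a-5p (-1.15), miR-34a (-1.40), miR-96 (-1.42), miR-99 (-0.47), miR-100 (-0.52), miR-100-5p (-0.57), miR-100b-5p (-0.87), miR-103 (-2.15), miR-107 (-1.81), miR-125a-5p (-1.90), miR-128 (-1.56), miR-138 (-1.25), miR-140-5p (-1.48), miR-144 (-2.03), miR-145 (-1.53), miR-182 (-0.94), miR-183 (-0.07), miR-218a (-0.68), miR-451 (-1.28), miR-126-3p (-1.50), miR-196b (-1.92), miR-210-5p (-1.13), miR-30b (-0.09), miR-30b-5p (-1.14), miR-30c-5p (-0.94) and miR-458 (-0.26). In winter fish only it turned for miR-15e-5p (-0.70) and miR-100b-5p (-0.24). With the miR-10 family out of the denominator, muscle minus skin became 645.6 RPM for red blood cell, 3002 for osmotic response, 14500 for let-7, 157000 for the miR-99 list and 17930 for the sensory cluster. The osmotic response and let-7 lists did not pass there (exact permutation test, adjusted p = 0.790 and 0.265). Leaving out 1 fish also ended the calls of miR-34a, miR-100b-5p and miR-106 (5 fish each), miR-128-1-5p (6), miR-15e-5p (7) and miR-19b (3). Depth limits names of a few reads in a library.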

Other observations

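Some miRNAs outside the lists also differed between the tissues with TMM. miR-2188-5p, among the 10 most abundant profiles of muscle, had 1842, 5521 and 12880 RPM in muscle, against 767.5, 1763 and 9722 RPM in skin. It was higher in muscle by 3.24 ± 0.28 with TMM and 0.94 with totals (edgeR adjusted p = 1.2e-09 and 0.0029), and its share was higher in 12 of 14 fish. miR-730 was higher by 3.02 ± 0.25 at low levels, with 1.43, 4.58 and 15.4 RPM in muscle and 0.541, 2.67 and 5.34 RPM in skin. miR-458 had 239, 440.1 and 1302 RPM in muscle, against 327, 500.1 and 759 RPM in skin, and was higher by 1.99 ± 0.16 with TMM and -0.26 with totals, where it did not pass (edgeR adjusted p = 0.33).

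In the other direction, miR-2184 had 99.3, 307 and 2047 RPM in muscle, against 4747, 10980 and 14340 RPM in skin (-2.91 ± 0.21 with TMM). miR-1788-3p had 0.00, 0.0325 and 2.58 RPM in muscle, against 3.14, 18.1 and 28.6 RPM in skin. The minor arm miR-184-5p had 0.00, 0.240 and 1.24 RPM in muscle, against 9.94, 18.2 and 31.1 RPM in skin, and fell by 4.00 ± 0.36 beside the fall by 4.45 ± 0.25 of miR-184b.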
